A study of Homo sapiens with 74 samples.

Results

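The lamins and inner nuclear membrane proteins considered here are 9 of the 39037 genes in the RNA table, and were followed through RNA sequencing and DamID of HEK293T, an established human embryonic kidney line. They were taken by symbol: the lamins LMNA, LMNB1 and LMNB2, the membrane proteins LBR, EMD, LEMD2, LEMD3 and TMPO, and BANF1. Each symbol matched 1 row of the RNA table, and all 9 passed the filter on low counts. In DamID, each gene was placed by the 100 kb bin that holds the midpoint of its span.

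In DamID, the bacterial methylase Dam marks the adenine of GATC sites near the protein it is fused to, and DpnI then releases the marked fragments. RNA was sequenced from 2 libraries each of cells transfected with DamV133A-LMNB1 (the V133A variant of Dam fused to lamin B1, here called the fusion), DamV133A by itself or m6A-Tracer, which binds GATC once it is methylated, and of cells labelled untreated. Bulk DamID had 2 libraries of the fusion and 2 of DamV133A, and a second table had 2 libraries each of DamWT, DamWT-LMNB1, DamV133A and DamV133A-LMNB1. Single cells comprised 15 with DamV133A-LMNB1 and 3 with unfused DamV133A in batch 1, both with m6A-Tracer, and 36 with DamV133A-tdTomato-LMNB1 and m6A-Tracer-NES in batch 2. The labels carry one treatment text for all samples, transfection and 1 mM Shield-1 for 20 hours. The untreated libraries are marked as not transfected, and whether they received Shield-1 is not given there. Transient transfection leaves cells with different amounts of plasmid, and no label ties a replicate to a culture of its own, so p-values measure only the spread between these libraries, which may be technical. In these bulk libraries, fewer cells with a transcript and less of it per cell cannot be told apart.

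The lamina is a mesh of lamin filaments under the inner nuclear membrane. LMNA encodes the A-type lamins, and LMNB1 and LMNB2 the B-type lamins, which stay farnesylated and membrane-bound. LBR is a membrane receptor that binds B-type lamins and heterochromatin and also holds sterol reductase activity. EMD (emerin), LEMD2, LEMD3 (MAN1, an inhibitor of SMAD signalling) and TMPO (the LAP2 proteins) share the LEM domain, which binds the small DNA-bridging protein encoded by BANF1. Together these proteins tie chromatin to the nuclear edge and rebuild the envelope after mitosis.

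DamID can read only GATC sites, so the sequence just before the start of each of the 4 genes called in an RNA comparison is shown, with every GATC in capitals. The windows hold 250 bases before the outermost RefSeq start (GRCh38.p14), written 5′ to 3′ on the gene's strand: LMNB1 at chr5:126776373-126776622 (plus), LBR at chr1:225428822-225429071 (minus), LMNA at chr1:156082323-156082572 (plus) and BANF1 at chr11:66002253-66002502 (plus).
LMNB1: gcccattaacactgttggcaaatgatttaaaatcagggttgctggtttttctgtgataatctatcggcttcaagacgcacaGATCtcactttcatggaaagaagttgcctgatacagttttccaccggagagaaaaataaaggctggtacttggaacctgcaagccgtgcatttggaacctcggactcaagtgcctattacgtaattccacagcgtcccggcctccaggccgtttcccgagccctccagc
LBR: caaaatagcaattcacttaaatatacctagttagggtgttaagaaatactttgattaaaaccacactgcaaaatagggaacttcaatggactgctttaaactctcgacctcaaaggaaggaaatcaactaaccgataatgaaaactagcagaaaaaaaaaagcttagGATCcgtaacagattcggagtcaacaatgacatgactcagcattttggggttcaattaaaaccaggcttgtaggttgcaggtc
LMNA: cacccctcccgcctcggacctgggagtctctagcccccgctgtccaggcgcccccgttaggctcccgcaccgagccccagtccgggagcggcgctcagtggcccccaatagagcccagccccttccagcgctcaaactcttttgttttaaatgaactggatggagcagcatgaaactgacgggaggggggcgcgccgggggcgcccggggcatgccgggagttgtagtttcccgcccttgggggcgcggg
BANF1: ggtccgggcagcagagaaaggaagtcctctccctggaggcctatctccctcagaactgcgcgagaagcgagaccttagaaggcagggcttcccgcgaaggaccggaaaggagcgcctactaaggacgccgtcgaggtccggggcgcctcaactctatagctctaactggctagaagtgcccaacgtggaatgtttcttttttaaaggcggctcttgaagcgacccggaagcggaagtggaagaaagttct
LMNB1 and LBR have 1 GATC each in these windows, and LMNA and BANF1 have none. Of the 13 windows that the table lists for the 9 genes, 3 hold a GATC, 1 each at LBR, LEMD2 and LMNB1 (23.1%), against 35.8% of 35116 promoter windows of the same length. GATC reads the same on both strands. In the Dam variant table, the DpnI fragment that holds each of the 13 starts had at most 4 counts in any library, so differences at the starts themselves were not detectable at this depth.

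The RNA libraries held 39690886 to 51455298 estimated counts, the bulk DamID libraries 402171358 to 524019579 coverage counts, the variant libraries 3160747 to 10664435 counts and the single cells 9526 to 348793 unique fragments. RNA levels are given in CPM (counts per unit of sequencing depth, with TMM scaling). For the markers, CPM was scaled by library totals alone. All 8 HEK293T markers were at 1 CPM or more in every RNA library. Of 16 markers of other cells, 15 were under 1 CPM in every library, and COL1A1, a fibroblast collagen, was at 24.3 to 28.9 CPM. The 2 fusion libraries differed from each other more than other replicates: by over 1.5-fold at 3.15% of 10561 genes, against 0.123% to 0.199% within the other groups. The libraries labelled untreated stood apart at LMNB1, as described next.

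LMNB1 RNA was at 2548 and 2056 CPM in the fusion libraries, 249.6 and 253 CPM with DamV133A, 251 and 257 CPM with m6A-Tracer, and 767 and 768 CPM in the libraries labelled untreated. The order of the groups was thus fusion, untreated, then m6A-Tracer and DamV133A. None of these groups overlapped except the last pair, which differed by a log2 fold change of -0.01 ± 0.09 (SE; edgeR adjusted p = 0.982). LMNB1 counts in the fusion libraries include RNA of the construct, so its level there is no measure of the endogenous gene. It was 9.15-fold higher than with DamV133A (log2 fold change 3.19 ± 0.09 SE, edgeR adjusted p = 1.1e-05) and 3.00-fold higher than in the libraries labelled untreated (1.58 ± 0.09, edgeR adjusted p = 0.000151). Against m6A-Tracer it was 9.06-fold higher (3.18 ± 0.09, edgeR adjusted p = 1.2e-05). As a share of all RNA counts, LMNB1 took 0.253% and 0.198% in the fusion libraries and 0.0255% to 0.0262% with m6A-Tracer or DamV133A.

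The libraries labelled untreated were also 3.05-fold above DamV133A at LMNB1 (log2 fold change of DamV133A over untreated -1.61 ± 0.09, edgeR adjusted p = 6.9e-05). They were 3.02-fold above m6A-Tracer (-1.59 ± 0.09, edgeR adjusted p = 0.000191). LMNB1 kept each of these 5 calls in all 14 alternatives tried.

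FKBP1A encodes human FKBP12, the source of the destabilisation domain that Shield-1 binds, and was read beside LMNB1 for that reason, after the LMNB1 values were seen. FKBP1A was at 626 and 584 CPM with the fusion, 853 and 844 CPM with DamV133A, 291 and 285 CPM with m6A-Tracer, and 359 and 356 CPM in the libraries labelled untreated. It was lower with m6A-Tracer than in the libraries labelled untreated (log2 fold change -0.31 ± 0.05, edgeR adjusted p = 0.00735). Above the mean of the m6A-Tracer libraries, the libraries labelled untreated held 512 and 514 CPM more LMNB1 and 70.9 and 68.3 CPM more FKBP1A, a ratio of 0.138 and 0.133 FKBP1A per LMNB1. The fusion libraries held 2293 and 1801 CPM more LMNB1 and 337 and 296 CPM more FKBP1A, a ratio of 0.147 and 0.164. The cause of the LMNB1 difference between the libraries labelled untreated and those of m6A-Tracer and DamV133A was not tested.

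**Figure D1:**
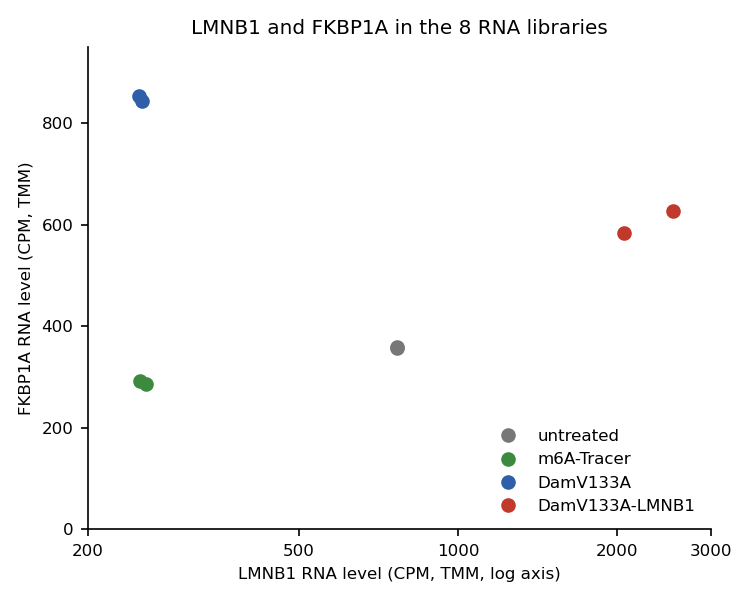
FKBP1A against LMNB1 RNA in each of the 8 libraries, in CPM after TMM scaling, with a log axis for LMNB1. The 2 libraries labelled untreated lie near 767 CPM LMNB1, between the m6A-Tracer and DamV133A libraries (249.6 to 257 CPM) and the fusion libraries (2056 and 2548 CPM).

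Of the 9 members, LMNB1 and BANF1 rose and 0 fell with the fusion against DamV133A. Of all 17740 genes tested, 20.3% were called there, 12.7% higher and 7.55% lower. Against the libraries labelled untreated, LMNB1 and LMNA rose with the fusion and LBR fell, where 18.9% of genes were called (11.4% higher, 7.56% lower). Against m6A-Tracer, LMNB1 was the 1 member called (0.231% of genes, 0.0564% higher and 0.175% lower). DamV133A differed from the libraries labelled untreated at LMNB1, which fell, with 26.7% of genes called (13.6% higher, 13.1% lower). So did m6A-Tracer, with 12.3% called (7.62% higher, 4.67% lower). In both, LMNB1 was the 1 member called. Between DamV133A and m6A-Tracer edgeR called 0 members (0.124% of genes called, 0.0507% higher and 0.0733% lower). There, 0 of 9 reached an unadjusted p under 0.05, and DESeq2 called 0 as well (0.321% of genes). These comparisons share groups: 3 use the same libraries labelled untreated, and 3 the same fusion libraries. Without LMNB1, the median log2 fold change of the other 8 members ran from -0.05 to 0.10 over the 6 comparisons, against -0.02 to 0.01 for all genes. The 2 libraries of one group lay wholly above or below those of the other at 8 members for the fusion against DamV133A (65.4% of genes), 7 against the libraries labelled untreated (58.6%) and 5 against m6A-Tracer (59.9%). For DamV133A and m6A-Tracer against the libraries labelled untreated this held at 7 members each (73.1% and 68.4% of genes), and between those groups at 5 (53.5%).

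BANF1, whose product bridges DNA to the LEM-domain proteins, was at 193 and 245 CPM with the fusion, 154 and 149 CPM with DamV133A, 163 and 156 CPM with m6A-Tracer, and 189 and 184 CPM in the libraries labelled untreated. The fusion libraries were above all 6 others and differed from each other by 1.27-fold, the widest replicate ratio of the 9 members. BANF1 rose by a log2 fold change of 0.53 ± 0.10 against DamV133A (edgeR adjusted p = 0.0202). Against m6A-Tracer the difference was 0.46 ± 0.10 (edgeR adjusted p = 0.0646) and against the libraries labelled untreated 0.23 ± 0.10 (0.138). The call against DamV133A was lost when only those 2 groups were fitted (edgeR adjusted p = 0.147) and when any single library outside the fusion was left out (0.0545 to 0.163). The 5 BANF1 pseudogenes of the table, which could share reads with it, held at most 7 counts each in a library.

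LMNA was at 91.6 and 109 CPM with the fusion, 89.7 and 86.7 CPM with DamV133A, 92.7 and 89.5 CPM with m6A-Tracer, and 77.7 and 73.2 CPM in the libraries labelled untreated. The last 2 were the lowest of the 8. LMNA rose with the fusion against them by 0.41 ± 0.08 (edgeR adjusted p = 0.0156), and DamV133A and m6A-Tracer stood 0.23 ± 0.08 and 0.27 ± 0.08 above them without passing the threshold (edgeR adjusted p = 0.0855 and 0.0739). Against DamV133A the fusion differed by 0.19 ± 0.08 (edgeR adjusted p = 0.140) and against m6A-Tracer by 0.14 ± 0.08 (0.284). The call against the libraries labelled untreated was lost when either of them was left out (edgeR adjusted p = 0.0839 and 0.131) and when only the 2 groups were fitted (0.117).

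LBR was at 342 and 330.5 CPM with the fusion, 351 and 352 CPM with DamV133A, 351 and 343 CPM with m6A-Tracer, and 370.2 and 378 CPM in the libraries labelled untreated. The libraries labelled untreated were the highest 2 of the 8. LBR fell with the fusion against them by 0.15 on the log2 scale (SE 0.05, edgeR adjusted p = 0.0487), a call lost in 12 of 14 alternatives, among them DESeq2 (adjusted p = 0.0999). Against DamV133A and m6A-Tracer the fusion differed by -0.06 ± 0.05 and -0.05 ± 0.05 (edgeR adjusted p = 0.326 and 0.507), and no other comparison called LBR.

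The other 5 members were not called by edgeR in any of the 6 comparisons. With the fusion against DamV133A, 3 lay just over the threshold: EMD (0.20 ± 0.06, edgeR adjusted p = 0.0572), LEMD2 (0.21 ± 0.07, 0.0559) and LEMD3 (-0.20 ± 0.07, 0.0644). There, 5 of the 9 members had an unadjusted p under 0.05 in the edgeR fit, as did 6960 of 17740 genes. DESeq2 called 3 members there (22.8% of genes). LMNB2, the second B-type lamin, ranged from 399.9 to 429 CPM over the 8 libraries and TMPO from 376 to 400.0 CPM. Their highest library was 1.07 and 1.06 times the lowest, the narrowest of the 9. The span of TMPO overlaps that of TMPO-AS1, and no source used here gives the strand setting of the counting, so reads of the pair cannot be told apart. EMD ranged from 194 to 237 CPM and LEMD2 from 55.3 to 68.8 CPM, each highest in 1 fusion library. LEMD3 ranged from 55.0 to 66.0 CPM and was highest in the 2 DamV133A libraries (66.0 and 65.8 CPM).

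**Figure D2:**
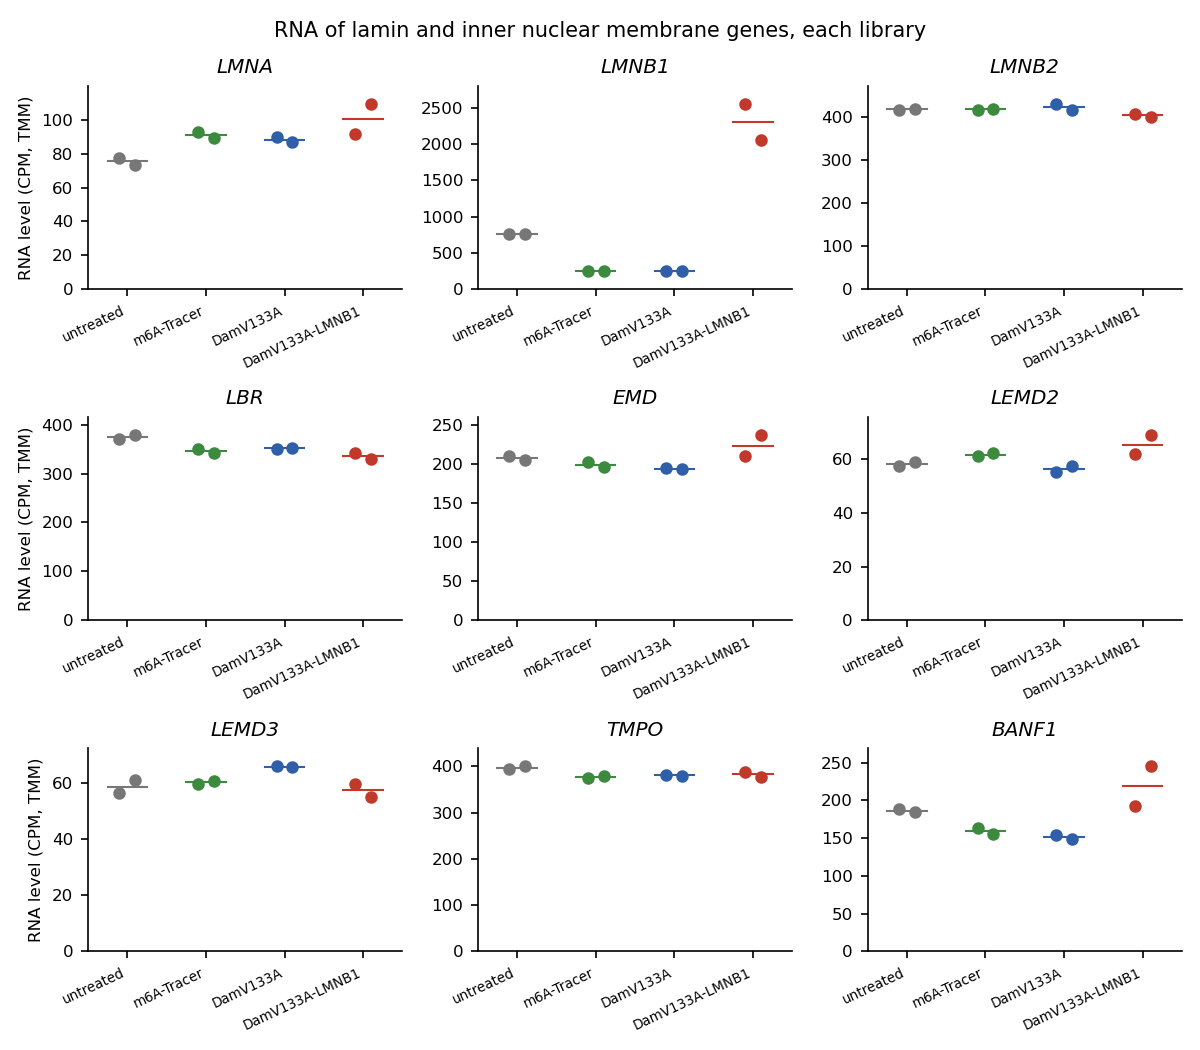
RNA level of each member gene in CPM after TMM scaling, with 1 point per library, the group mean as a line and each axis from 0. LMNB1 separates the fusion libraries and the libraries labelled untreated from the other 4, while LMNB2 and TMPO stay within 1.07-fold over all 8.

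The counts of calls moved with the libraries kept, among members and all genes alike. With the fusion against DamV133A, 7 members (48.7% of genes) were called without fusion replicate 1 and 3 (23.7%) without fusion replicate 2. Without any 1 of the other 6 libraries, LMNB1 was the 1 gene called in that comparison (at most 0.00545% of genes). With DamV133A against the libraries labelled untreated, 7 members were called without either fusion library (47.5% and 47.4% of genes), where LMNA differed by 0.22 and BANF1 by -0.30 on the log2 scale. Leaving out either m6A-Tracer library there gave 1 member, LMNB1 (18.3% of genes).

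By the rule of highest correlation of log2(CPM + 1) over the 8 libraries among 10561 genes, BANF1 was most like GADD45GIP1 (Pearson r = 0.999), SFXN4 and MRPL12 (0.997 each). EMD was most like ZNHIT1 (r = 0.998) and NDUFS8 (0.996), and LMNA most like SPATA2L (0.992). Over the 6 libraries without the fusion, LMNB1 was most like WDR41 (r = 1.000), FAM60A and HILPDA (0.999 each), where the points form 2 clusters, the libraries labelled untreated and the rest. These values describe 8 libraries that share 4 groups and carry no test.

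Of 41 genes that process, bind or regulate these proteins, in 7 lists, 39 were tested. LEMD1 and BANF2, relatives of the LEM-domain genes and of BANF1, reached at most 0.0989 and 0.0252 CPM by library totals alone and were not tested. With the fusion against DamV133A, 5 rose and 3 fell, a median log2 fold change of 0.04 over the 39 against -0.02 over all genes. Against the libraries labelled untreated 7 rose and 3 fell, and DamV133A against them gave 8 and 6, m6A-Tracer 5 and 1. Against m6A-Tracer, edgeR called 0 with the fusion and 0 with DamV133A, where 14 and 4 had an unadjusted p under 0.05. DESeq2 called 4 and 0, with 14.2% and 0.321% of all genes. By edgeR, the shares of all genes are those given above for the members. With scaling by library totals alone the directions shifted: 2 rose and 6 fell with the fusion against DamV133A, and 14 rose and 2 fell with DamV133A against the libraries labelled untreated. The median over all genes moved there from -0.02 to -0.10 and from 0.01 to 0.10.

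Among chromatin partners of lamins, CBX5 (HP1 alpha, which LBR binds) was at 233 and 171 CPM with the fusion (mean 202). It was at 266 and 279 CPM with DamV133A (mean 272) and 299 CPM in each library labelled untreated. It fell by 0.43 against DamV133A (SE 0.12, edgeR adjusted p = 0.0421) and by 0.57 against the libraries labelled untreated (SE 0.12, 0.0175), and differed by -0.41 ± 0.12 against m6A-Tracer (0.0764). CBX1 (HP1 beta) fell with DamV133A against the libraries labelled untreated by 0.39 (SE 0.05, edgeR adjusted p = 0.00132), with m6A-Tracer by 0.24 (0.0160) and with the fusion by 0.16 (0.0459). It was higher with the fusion than with DamV133A (0.23 ± 0.05, edgeR adjusted p = 0.0218). PRR14, which tethers HP1 chromatin to the lamina, rose against the libraries labelled untreated with the fusion (0.49 ± 0.06, edgeR adjusted p = 0.00252), DamV133A (0.33 ± 0.06, 0.00661) and m6A-Tracer (0.30 ± 0.06, 0.0189). The fusion differed at PRR14 by 0.16 ± 0.06 from DamV133A and 0.19 ± 0.06 from m6A-Tracer (edgeR adjusted p = 0.0917 and 0.0864). HDAC3, a deacetylase bound by emerin and LAP2 beta, rose with the fusion against DamV133A (0.29 ± 0.08, edgeR adjusted p = 0.0456). It was at 118 and 143 CPM in the fusion libraries and 108 and 106 with DamV133A. The fusion differed at HDAC3 by 0.20 from m6A-Tracer and 0.13 from the libraries labelled untreated (edgeR adjusted p = 0.136 and 0.294).

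By list, the 6 chromatin partners had 2 rising and 2 falling with the fusion against DamV133A, the 6 envelope-sealing genes 2 rising, and the 5 genes of lamin farnesyl processing and the 6 of lamina disassembly 0. CHMP2A, an ESCRT-III subunit that seals the reforming envelope, fell with DamV133A against the libraries labelled untreated by 0.39 (SE 0.09, edgeR adjusted p = 0.0139). It rose with the fusion against DamV133A (0.37 ± 0.09, edgeR adjusted p = 0.0271). The fusion differed at CHMP2A by 0.30 from m6A-Tracer and -0.01 from the libraries labelled untreated (edgeR adjusted p = 0.0728 and 0.923). PLK1, a mitotic kinase, rose against the libraries labelled untreated with the fusion (0.40 ± 0.05, edgeR adjusted p = 0.00169), DamV133A (0.38 ± 0.05, 0.00139) and m6A-Tracer (0.25 ± 0.05, 0.0127), and differed by 0.03 between the fusion and DamV133A (0.701) and by 0.15 between the fusion and m6A-Tracer (0.0766). RCE1, the protease that trims farnesylated lamins, rose with the fusion against the libraries labelled untreated (0.47 ± 0.13, edgeR adjusted p = 0.0402), and differed by 0.36 and 0.35 against DamV133A and m6A-Tracer (0.0793 and 0.112). It was at 35.3 and 48.4 CPM in the fusion libraries. TM7SF2, a sterol reductase related to LBR, rose with the fusion against DamV133A (0.36 ± 0.09, edgeR adjusted p = 0.0309). The fusion libraries held 41.3 and 49.6 CPM of TM7SF2. The fusion differed at TM7SF2 by 0.06 from m6A-Tracer and 0.19 from the libraries labelled untreated (edgeR adjusted p = 0.677 and 0.177). Of other inner nuclear membrane genes, TMEM201 (SAMP1) rose against the libraries labelled untreated with m6A-Tracer (0.23 ± 0.06, edgeR adjusted p = 0.0463), DamV133A (0.28, 0.0123) and the fusion (0.22, 0.0406). NEMP2 fell with DamV133A against them by 0.49 (SE 0.15, 0.0477). With the fusion against DamV133A, 0 partner genes were called when only those 2 groups were fitted (0.00577% of genes), and 23 when fusion replicate 1 was left out (48.7%).

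In bulk DamID, lamina-associated domain (LAD) bins are those called higher with the fusion than with DamV133A alone and iLAD bins those called lower. All 8 autosomal members lay in bins called lower (36.2% of 27944 tested bins, and 66.7% of 19077 protein-coding genes by the same placing, were called lower). Most protein-coding genes thus share this call. The members' median log2 fold change was -0.85, against -0.76 for protein-coding genes and -0.06 for all bins. EMD, on chromosome X, was not analysed in bulk here.

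BANF1 (chr11:66002503-66004149, hg38) had the lowest fold change. Its bin, 66000001 to 66100000, was at 44.8 and 44.3 coverage CPM (TMM) with DamV133A and 21.5 and 19.7 with the fusion. The log2 fold change was -1.11 ± 0.21 (edgeR adjusted p = 0.000101), and 10.6% of all bins were lower. The authors' deposited table marks this bin as a control iLAD bin and gives it -1.07. LBR (chr1:225401502-225428821) followed, at 66.0 and 82.1 with DamV133A and 45.0 and 33.5 with the fusion (-0.92 ± 0.19, edgeR adjusted p = 0.000189), and LEMD2 (chr6:33771213-33789130), at 21.9 and 24.4 against 12.5 and 11.9 (-0.92 ± 0.27, 0.00483). The libraries of the 2 groups did not overlap in any of the 8 bins, as in 86.1% of all bins tested.

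The remaining members were closer to 0. LMNB2 (chr19:2428166-2456959) had 32.8 and 31.7 coverage CPM with DamV133A and 17.3 and 18.0 with the fusion (-0.87 ± 0.23, edgeR adjusted p = 0.00240). LMNA (chr1:156082573-156140081) had 45.1 and 46.9 against 31.2 and 26.7 (-0.67 ± 0.20, 0.00592). TMPO (chr12:98515573-98550351) had 60.4 and 60.5 against 32.2 and 35.2 (-0.84 ± 0.18, edgeR adjusted p = 0.000368), and LEMD3 (chr12:65169583-65248355) 54.1 and 63.4 against 40.4 and 38.0 (-0.58 ± 0.18, 0.00667).

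LMNB1 (chr5:126776623-126837020) had the smallest difference: 35.1 and 40.7 with DamV133A and 30.0 and 24.0 with the fusion (-0.49 ± 0.22, edgeR adjusted p = 0.0483). That call was lost in 8 of 12 alternatives, DESeq2 (adjusted p = 0.0557) and the bin of the gene's start (-0.24, edgeR adjusted p = 0.242) among them. LEMD3 was not called by the bin of its start either (-0.41, edgeR adjusted p = 0.0767). With DamV133A replicate 2 left out, the log2 fold changes of the 8 bins ran from -1.11 at BANF1 to -0.37 at LMNB1. The fusion plasmid carries LMNB1 coding sequence, and its part in the counts of this bin was not tested.

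**Figure D3:**
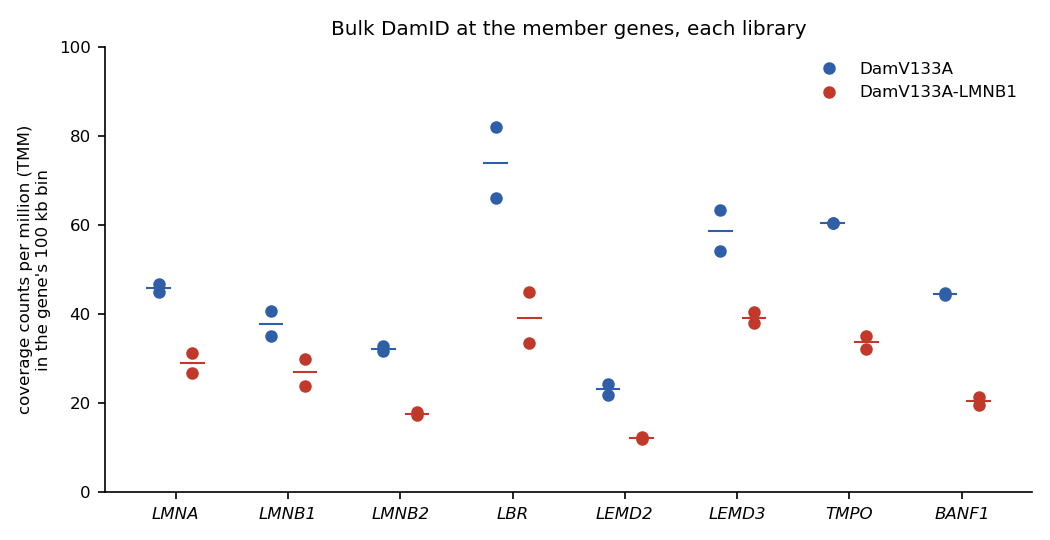
Bulk DamID coverage CPM (TMM) in the 100 kb bin of each autosomal member, with 1 point per library and the group mean as a line. In each bin both fusion libraries lie below both DamV133A libraries, most narrowly at LMNB1 (30.0 and 24.0 against 35.1 and 40.7).

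The distance to the lamina-contacting genome differed widely among members. LMNB1 and TMPO lay 0.300 Mb, measured from bin start to bin start, from the nearest LAD bin. At LMNB1, 3 of the 10 bins within 500 kb were LAD bins, all after the gene: the log2 fold change stepped from -0.49 ± 0.20 at 200 kb after the gene's bin to 0.83 ± 0.22 at 300 kb (edgeR adjusted p = 0.0291 and 0.00254). TMPO sat in a run of 2 iLAD bins between LAD bins on both sides, 5 of its 10 neighbours, which reached 1.22 ± 0.20 at 400 kb before the gene. LMNA, LEMD2 and BANF1 had 10 iLAD bins among their 10 neighbours, in unbroken iLAD runs of 4.10, 8.60 and 4.60 Mb. LMNB2 was farthest, 17.7 Mb from the nearest LAD bin on its chromosome. LEMD3 was a lone iLAD bin, with 4 iLAD and 0 LAD bins among its 10 neighbours and 1.2 Mb to the nearest LAD bin.

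**Figure D4:**
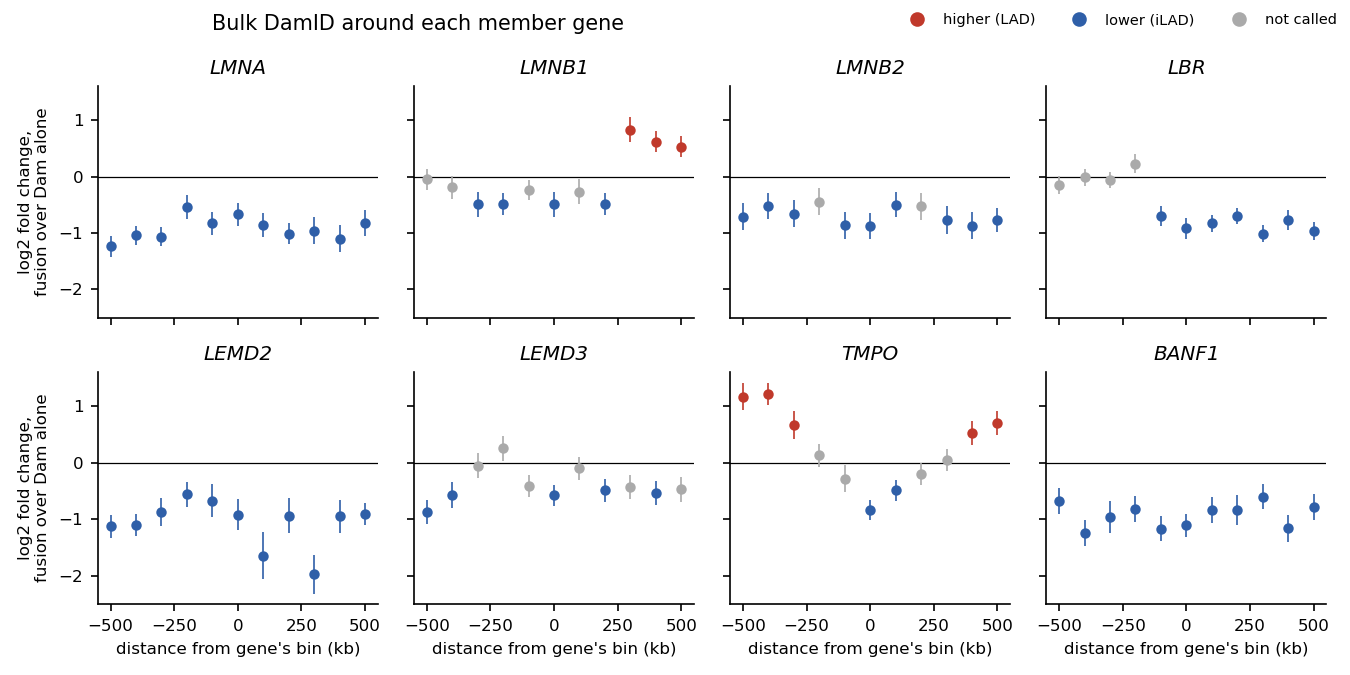
Bulk log2 fold change, fusion over DamV133A, with its SE, in each member's bin and the 5 bins to either side, against distance in kb, coloured by call. LMNB1 and TMPO have LAD bins within 300 kb, while every bin drawn for LMNA, LEMD2 and BANF1 is called lower with the fusion.

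The Dam variant table, counted per DpnI fragment and summed to 100 kb, added chromosome X and wild-type Dam. With V133A, 5 of 9 member bins were lower with the fusion and 0 higher (23.7% of 28733 tested bins were called lower and 27.0% higher): EMD, LBR, LMNA, BANF1 and LEMD3. EMD (chrX:154379295-154381523) had the lowest fold change. Its bin was at 22.9 and 19.6 CPM with DamV133A, 1.26 and 3.76 with DamV133A-LMNB1, 9.61 and 11.5 with DamWT and 5.34 and 9.26 with DamWT-LMNB1. The V133A fold change was -3.08 ± 0.76 on the log2 scale (edgeR adjusted p = 0.00472), and the DamWT one -0.54 ± 0.71 (0.697). The fusion libraries of both variants lay below those of their Dam at EMD.

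LBR was at 62.7 and 65.5 CPM with DamV133A and 7.56 and 21.2 with DamV133A-LMNB1 (-2.16 ± 0.47, edgeR adjusted p = 0.00214). LMNA was at 34.2 and 36.2 against 10.7 and 5.64 (-2.10 ± 0.57, edgeR adjusted p = 0.00791), and BANF1 at 37.8 and 20.1 against 6.05 and 7.52 (-2.09 ± 0.60, 0.0109). The call was lost at LMNA without DamV133A replicate 2 (-2.06, edgeR adjusted p = 0.0507) and at BANF1 without DamV133A replicate 1 (-1.56, 0.131). The fold at EMD and LBR rested on which DamV133A-LMNB1 library was kept: -2.49 and -1.59 without replicate 1, and -4.06 and -3.08 without replicate 2, all called. LEMD3 was at 52.0 and 35.3 against 21.0 and 16.7 (-1.21 ± 0.38, edgeR adjusted p = 0.0165), and not called by its start bin (-0.29, 0.514), over 300 kb (-0.08, 0.739), without DamV133A replicate 1 (-0.90, 0.153) or without DamV133A-LMNB1 replicate 2 (-1.05, 0.0533). LMNB1 was the only member bin with a V133A fold change above 0 (0.63 ± 0.45, edgeR adjusted p = 0.249). It held 21.3 and 14.9 CPM with DamV133A and 30.7 and 25.2 with DamV133A-LMNB1. These libraries are shallow, at 10 to 547 counts per member bin and library.

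With wild-type Dam, 0 of 9 member bins were called by edgeR (2.63% of bins called), 1 had an unadjusted p under 0.05 (BANF1, 0.0395) and the median was -0.55 against -1.69 with V133A. The 2 DamWT-LMNB1 libraries were unlike each other, with counts at 441409 and 847355 DpnI fragments from totals of 10664435 and 4922664. In them LBR was at 40.9 and 20.7 CPM, LMNA at 10.2 and 23.6 and TMPO at 30.5 and 27.6. BANF1 differed by -0.81 without replicate 1 of DamWT-LMNB1 and -2.11 without replicate 2. The difference between variants was called at 0 of 9 members (0.494% of bins). Unadjusted p values under 0.05 were found at EMD (-2.54 ± 1.02, p = 0.0251 in the edgeR fit), LBR (p = 0.0343) and LEMD3 (p = 0.0472). By DESeq2 neither comparison called a member, where 13.9% of bins were called with wild-type Dam and 15.2% for the difference. Summed over 300 kb, 28.3% of all windows were called with wild-type Dam and 28.9% for the difference. Of the members, BANF1 was called with wild-type Dam there (-1.30, edgeR adjusted p = 0.0140), and EMD (-2.31, 0.0107), LBR (-1.15, 0.0104) and LMNB2 (-1.59, 0.0366) for the difference. Both counts of members are near or under those shares. LMNB2 changed direction, from 0.11 at 100 kb (edgeR adjusted p = 0.958).

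Over the gene bodies, coverage was thin. The 60398 bp span of LMNB1 holds 193 DpnI fragments, of which 10 to 24 had a count in each library. The 1647 bp span of BANF1 holds 6, and none had a count in any of the 8 libraries, so its bin's value comes from its surroundings. The 2229 bp span of EMD holds 10, of which 2 had a count in any library, with 14 counts in all. Most counts of the EMD bin thus lay outside the gene. The member bins hold 228 to 366 DpnI fragments, against a median of 243 per tested bin.

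In single cells, contact of a cell with a bin meant that the fragments reached or passed the number expected from the summed bulk DamV133A libraries at that cell's depth. In the DamV133A cells, where Dam is not fused to LMNB1, the same share is no measure of lamina contact. Cells of 1 group share a source, so shares carry exact Clopper-Pearson 95% intervals for counting error only and no test. Over the 8 autosomal members the mean share was 12.5% of the 15 DamV133A-LMNB1 cells of batch 1, 16.0% of the 36 DamV133A-tdTomato-LMNB1 cells of batch 2 and 58.3% of the 3 DamV133A cells. The means over all iLAD bins were 14.3%, 17.2% and 48.5%, and over LAD bins 59.8%, 62.3% and 28.1%. Over gene bins they were 20.5%, 23.1% and 46.9%. The medians over the 8 members were 13.3%, 8.33% and 66.7%, with LMNB1 the highest member in each group.

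LMNB1 stood apart within the 8. Its bin was contacted in 6 of 15 cells of batch 1 (40.0%, interval 16.3% to 67.7%) and 23 of 36 of batch 2 (63.9%, 46.2% to 79.2%). It reached the expected number in 3 of 3 DamV133A cells. LMNB2 was next in batch 2, at 8 of 36 cells (22.2%, 10.1% to 39.2%), and BANF1 had 5 (13.9%). LBR and TMPO were contacted in 1 of 36 each (2.78%, 0.0703% to 14.5%). TMPO and BANF1 were contacted in 0 of 15 cells of batch 1, where the interval reaches 21.8%. A fusion cell contacted a median of 1.0 and at most 4 of the 8 bins in either batch, and 6 of 15 and 9 of 36 contacted none.

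**Figure D5:**
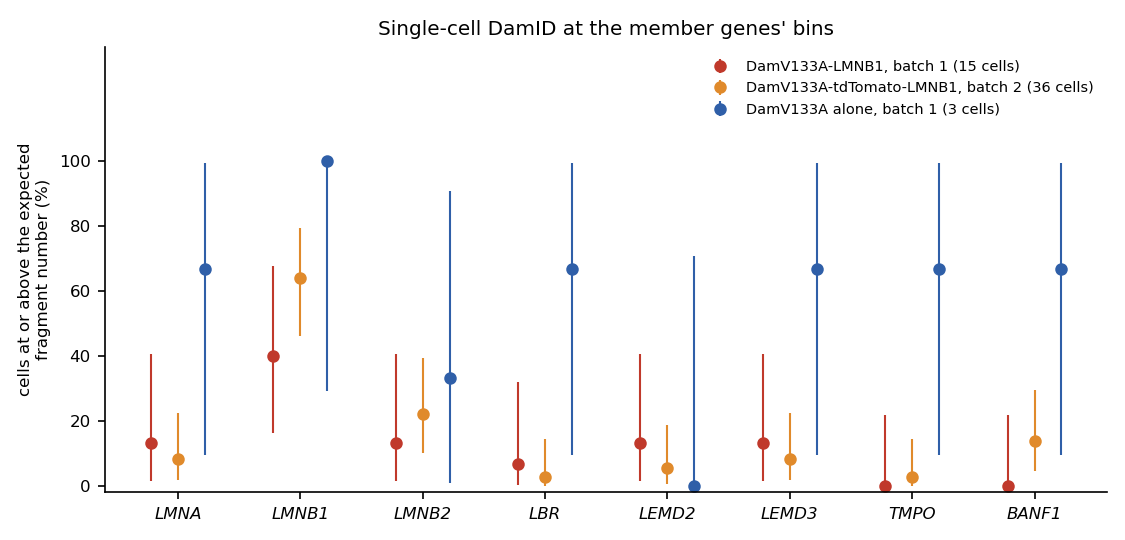
Share of cells whose fragments in each member's bin reached the number expected from bulk DamV133A, with exact 95% intervals, for 15 and 36 fusion cells and 3 DamV133A cells. LMNB1 is at 40.0% and 63.9% of fusion cells, while the other members are at 0% to 22.2%.

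The LMNB1 bin also had at least 1 fragment in all 51 fusion cells, 1 to 19 per cell. This count was made after the contact shares were seen. Such bins were 11 of 27944 (0.0394%), of which 6 were LAD, 2 iLAD and 3 not called. The bins just before and just after it had no fragment in 13 of the 51 cells each, and the other 7 members in 16 to 35. Pooled over the 51 cells, the LMNB1 bin held 1.15 times its expected fragments, against 0.567 and 0.933 in the flanking bins and 0.253 to 0.500 at the other members. By batch, the LMNB1 bin held 0.844 times its expected fragments in batch 1 (64 against 75.9) and 1.26 times in batch 2 (248 against 196). Within batch 2 its counts ran from 2 to 18 per cell with a coefficient of variation of 0.510, close to that of total fragments per cell (0.523) and below the median of 1.05 over 26288 bins. Only 3 bins had a lower one. The bin of FKBP1A had no fragment in 28 of the 51 cells and held 0.417 times its expected fragments. In the 3 DamV133A cells, the LMNB1 bin held 39 fragments against 17.1 expected (2.29 times). The other members there ran from 0.385 times at LEMD2 to 1.94 times at LMNA (40 against 20.6). The fusion plasmids carry LMNB1 sequence, and the part of it in the counts of the fusion cells was not tested.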

How the data were processed

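RNA, bulk DamID, Dam variant and single-cell DamID libraries of HEK293T were compared by the groups in the labels. The RNA table holds estimated counts per gene, as deposited by the authors, rounded here to whole numbers. The bulk table holds coverage counts, and the single-cell columns unique fragment counts, per 100 kb bin, per the file headers, and the variant table counts per DpnI fragment, summed here to 100 kb. The log2 fold change and the marks of control bins are the authors' own, as deposited. Per the submitters' processing notes, hg38 is listed as a build, and the tools, with no role stated, include limma, Salmon, DESeq2, bedtools 2.28, SAMtools 1.9, Trimmomatic 0.39 and BWA 0.7.15-r1140. DamID bins cover autosomes in the bulk table, and gene positions come from RefSeq GRCh38.p14, as do the upstream sequences.

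Tests used edgeR 4.0.16 (quasi-likelihood, TMM, filterByExpr, Benjamini-Hochberg adjusted p under 0.05 over all features) in R 4.3.3. DESeq2 1.42.0 was an alternative, as were other scalings, no filter, 300 kb windows, a replicate block and each library left out. On simulated data, the fusion against DamV133A RNA fit over 17740 genes recovered 94.0% of 2.0-fold changes. The bulk fit over 27944 bins recovered 53.7% of them, and the V133A fit over 28733 bins 0.0%, and 45.5% of 4.0-fold changes. The simulations changed few features and gave all features the same spread. In the data, 71.5% of bins were called in bulk and 50.7% with V133A, so these rates need not hold there. The member genes, partner lists and markers were chosen with earlier results of these data known. Named were all members, up to 4 called partner genes per comparison with the largest fold change, the genes most correlated with a member, and the bins within 5 of a member's.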

Additional observations from a re-analysis of the deposited data

How the results depend on the processing

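Of 21 called member values, 11 kept their call under every alternative and 10 lost it under at least 1. The values below are numbers of members called, of 9 in RNA and 8 in bulk DamID. DESeq2 called 2 members with DamV133A against untreated (23.8% of all genes) and 2 with the fusion against m6A-Tracer (14.2%). Scaling by library totals alone gave 4 with the fusion against DamV133A (21.5% of all genes). It gave 3 with DamV133A against untreated (27.6%) and 2 with m6A-Tracer against untreated (14.1%). Without the low-count filter these 3 counts were 4, 3 and 3 (17.9%, 18.8% and 11.5% of all genes). The fusion against m6A-Tracer then gave 2 (13.7%). Fitting only the 2 groups compared gave 1 with the fusion against DamV133A, 1 with the fusion against untreated, 7 with DamV133A against untreated, 5 with m6A-Tracer against untreated and 1 with DamV133A against m6A-Tracer. The shares of all genes called in these 2-group fits were 0.00577%, 1.45%, 50.9%, 40.5% and 11.6%. In 300 kb windows, 1 member was called with DamWT (28.3% of all windows) and 3 for the difference between variants (28.9%), where LMNB2 turned from 0.11 to -1.59. The cause was not tested.

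Leaving out each library in turn left 1 library in its group. The number of members called then moved, except between DamV133A and m6A-Tracer and with DamWT. The share of all genes or bins called moved with it. With the fusion against DamV133A, BANF1 differed by 0.71 without fusion replicate 1 and 0.35 without replicate 2 on the log2 scale. Against untreated, LMNA differed by 0.54 and 0.28 in the same fits. The mean contact share over the 3 DamV133A cells was 56.2% to 62.5% with 1 of them left out.

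At 2 times the expected fragments the mean contact share was 33.3% in the DamV133A cells, 5.00% in batch 1 and 3.47% in batch 2. In batch 2 it was 11.8% in 300 kb windows and 20.8% with cells thinned to 10000 fragments, of which 1 cell of batch 1 held too few.

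For the partner genes, alternatives chosen after seeing the data gave these numbers of called genes. With only the 2 groups fitted, 0 were called with the fusion against DamV133A, 0 against untreated, 27 with DamV133A against untreated, 24 with m6A-Tracer against untreated and 5 between DamV133A and m6A-Tracer. DESeq2 gave 4 with the fusion against m6A-Tracer (14.2% of all genes). No filter gave 9 there (13.7%), and 1 between DamV133A and m6A-Tracer (1.08%). Library totals gave 10 with m6A-Tracer against untreated (14.1%). Leaving out each library gave 0 to 23 with the fusion against DamV133A, 2 to 23 against untreated and 0 to 23 against m6A-Tracer. It gave 3 to 28 with DamV133A against untreated, 0 to 24 with m6A-Tracer against untreated and 0 to 5 between DamV133A and m6A-Tracer.

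Replicate numbers did not pair the libraries: deviations of same-numbered libraries correlated at -0.05 to 0.03 over 13 pairs. With a replicate block, the fusion gave 2 members against DamV133A (11.7% of all genes), 2 against untreated (13.9%) and 1 against m6A-Tracer (0.0507%). DamV133A and m6A-Tracer against untreated gave 1 each (22.0% and 8.02%). Bulk DamID gave 7 (71.9% of all bins) and V133A 5 (50.7%). The other 3 comparisons gave 0: DamV133A against m6A-Tracer (0.00564% of genes), DamWT (1.79% of bins) and the difference between variants (0.0%). Partner genes called with the block were 3 with the fusion against DamV133A, 6 against untreated and 3 with m6A-Tracer against untreated.

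Under library totals the share of RNA calls that were higher moved from 62.8% to 38.2% with the fusion against DamV133A, from 50.9% to 71.0% with DamV133A against untreated and from 62.0% to 80.0% with m6A-Tracer against untreated. For V133A it moved from 53.3% to 35.7%, for DamWT from 91.9% to 58.5% and for the difference between variants from 27.5% to 7.54% (48.9% with DESeq2 size factors). The median over all bins moved from -0.06 to -0.32 in bulk, from -0.10 to -0.50 with V133A, from -0.01 to -0.17 with DamWT and from -0.02 to -0.26 for the difference.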
